A study of Mus musculus with 36 samples.

Results

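The 8 genes described here encode the cannabinoid receptor of the brain (Cnr1) and the main enzymes that make and break down its lipid ligands (Dagla, Daglb, Napepld, Mgll, Abhd6, Abhd12 and Faah). They were taken by symbol from a table of 31554 genes, and each symbol matched 1 row. Their RNA was measured in the nucleus accumbens (NAc), the medial prefrontal cortex (PFC) and the periaqueductal grey (PAG) of adult male C57BL/6 mice. One set of mice had spared nerve injury (SNI) of the sciatic nerve, a model of lasting neuropathic pain, and the other had sham surgery. All tissue was collected 2.5 months after the operation. Each region had 6 sham and 6 SNI libraries, 36 in all, made from polyadenylated RNA that the labels call pooled. The number of mice behind a library is not given in the sources used here, so p-values measure the spread between libraries, which may be technical in part. It is not given either if 1 mouse contributed several regions, and comparisons between regions treat the libraries as independent. Values are RPKM (reads scaled to the length of the gene in kilobases and to the assigned reads of the library), which allows genes of different length to be set side by side.

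Endocannabinoids are lipids made on demand in the postsynaptic neuron, and they act backwards across the synapse on CB1 receptors of the presynaptic terminal, where they reduce transmitter release. The pair of diacylglycerol lipases encoded by Dagla and Daglb make 2-arachidonoylglycerol (2-AG), and monoacylglycerol lipase (Mgll), ABHD6 and ABHD12 hydrolyse it. NAPE-PLD makes anandamide and related N-acylethanolamines, and fatty acid amide hydrolase (Faah) breaks them down. CB1 is among the most abundant G protein-coupled receptors of the brain. In the PAG, release of GABA is held back by CB1 in descending control of pain, and in the NAc and PFC the receptor takes part in reward and in the evaluation of aversive stimuli.

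In the mouse build mm10, with GENCODE M21 annotation, all 8 were protein-coding genes. Cnr1 (ENSMUSG00000044288) lies on the plus strand at chr4:33924593-33948831, Dagla (ENSMUSG00000035735) on the minus strand at chr19:10245265-10304877 and Daglb (ENSMUSG00000039206) on the plus strand at chr5:143464584-143505942. Mgll (ENSMUSG00000033174) lies on the plus strand at chr6:88724412-88828360, Abhd6 (ENSMUSG00000025277) on the plus strand at chr14:8002902-8056763 and Abhd12 (ENSMUSG00000032046) on the minus strand at chr2:150832493-150904741. Napepld (ENSMUSG00000044968) lies on the minus strand at chr5:21662901-21701396 and Faah (ENSMUSG00000034171) on the minus strand at chr4:115967145-116017926. Transcript GC content ran from 44.9% in Cnr1 to 58.8% in Dagla, which is above that of 93.0% of expressed genes (median 49.7%). Daglb shares 2309 exon bases with Rac1 on the other strand, a gene of up to 121 RPKM here, and the use of strand in the counting is not given in the sources used here, so part of the Daglb reads cannot be told apart from Rac1 reads. Mgll shares 167 exon bases with the antisense gene Gm26588, which reached 0.932 RPKM. The smallest read number of any of the 8 genes in a library was 202, for Napepld, a counting error of 7.04%.

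The 250 bases upstream of the outermost RefSeq start (build GRCm38.p6) are shown for Cnr1, Faah and Napepld, the 3 genes that were at least 2-fold lower in sham NAc than in sham PFC, and for Mgll, which was lowest in PAG. Upstream sequence was matched for 6 of the 8 genes. Dagla and Abhd12 were not matched. Capitals mark matches on either strand to a GC box (GGGCGG), an E-box (CACGTG), a cAMP response element (TGACGTCA) or a TATA box (TATAAA), searched after the expression values were known.
Cnr1: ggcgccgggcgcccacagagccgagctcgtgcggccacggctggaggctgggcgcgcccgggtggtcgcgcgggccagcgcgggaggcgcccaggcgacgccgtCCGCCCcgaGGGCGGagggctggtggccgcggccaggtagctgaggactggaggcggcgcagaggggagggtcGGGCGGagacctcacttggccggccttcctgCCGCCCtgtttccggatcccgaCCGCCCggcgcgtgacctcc
Faah: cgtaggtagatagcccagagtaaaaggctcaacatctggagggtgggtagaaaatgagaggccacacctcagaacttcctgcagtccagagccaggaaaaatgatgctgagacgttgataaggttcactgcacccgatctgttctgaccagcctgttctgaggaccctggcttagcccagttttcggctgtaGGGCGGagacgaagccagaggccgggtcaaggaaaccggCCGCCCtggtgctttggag
Napepld: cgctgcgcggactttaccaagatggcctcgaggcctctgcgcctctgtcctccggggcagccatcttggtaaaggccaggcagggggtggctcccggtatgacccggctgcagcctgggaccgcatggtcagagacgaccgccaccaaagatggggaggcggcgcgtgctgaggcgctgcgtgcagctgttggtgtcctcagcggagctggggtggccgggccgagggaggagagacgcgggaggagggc
Mgll: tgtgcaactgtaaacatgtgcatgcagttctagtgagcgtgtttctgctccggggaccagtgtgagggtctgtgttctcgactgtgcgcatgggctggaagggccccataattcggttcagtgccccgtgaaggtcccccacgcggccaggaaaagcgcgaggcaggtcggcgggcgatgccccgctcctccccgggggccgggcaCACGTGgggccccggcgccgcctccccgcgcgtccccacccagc
The sequences lie at chr4:33924014-33924263 (Cnr1, plus strand), chr4:116017925-116018174 (Faah, minus strand), chr5:21701623-21701872 (Napepld, minus strand) and chr6:88724162-88724411 (Mgll, plus strand). The Cnr1 sequence had a GC content of 79.2% and 5 GC boxes, and the Faah sequence 55.6% and 2 GC boxes. The Napepld sequence, at 69.6% GC, held none of the 4 motifs, and the Mgll sequence, at 68.0%, held 1 E-box. Over 32851 upstream sequences of this length the median GC content was 52.4%, and 32.7% held a GC box, 6.02% the E-box, 1.55% the cAMP response element and 12.4% the TATA box. No motif was found in all 3 of Cnr1, Faah and Napepld.

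Assigned reads per library ranged from 27.6M to 64.9M, with the shallowest libraries in PAG (27.6M to 44.1M). Markers of each region matched the labels: in sham libraries NAc exceeded PFC by 2-fold or more for 7 of 7 measured markers of medium spiny neurons, PFC exceeded PAG for 8 of 8 markers of excitatory cortical neurons, and PAG exceeded PFC for 6 of 6 midbrain markers. Libraries of 1 region were not alike in tissue content. Slc17a7, which encodes a vesicular glutamate transporter found in cortical neurons, ranged from 1.59 to 178 RPKM in NAc, and the summed oligodendrocyte markers in PFC ranged from 288 to 1067 RPKM in sham and 267 to 1281 RPKM in SNI libraries. Summed markers of medium spiny neurons in PFC ranged from 28.9 to 31.4 RPKM in sham and from 29.7 to 70.0 RPKM in SNI libraries. Their score, the mean log2 deviation from the region mean, was 1.22 in PFC SNI library 24. It was -0.229 to 0.00145 in the other PFC libraries. In bulk tissue, fewer cells of a type and less RNA per cell cannot be told apart.

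Abhd12 was the most abundant of the 8 transcripts in all 3 regions and hardly varied: it lay between 66.4 and 78.0 RPKM in all 36 libraries. In sham NAc it measured 73.3 ± 2.66 RPKM (SD, n = 6), followed by Mgll at 42.3 ± 4.21, Abhd6 at 21.6 ± 1.14, Cnr1 at 20.3 ± 5.11 and Dagla at 11.4 ± 2.14. Daglb (5.21 ± 0.452), Faah (4.09 ± 1.16) and Napepld (2.02 ± 0.308) were lowest there. Libraries overlapped between neighbours in this order for Abhd6 and Cnr1, Cnr1 and Dagla, and Daglb and Faah. In sham PFC the order was Abhd12, Mgll, Cnr1, Abhd6, Dagla, Faah, Daglb and Napepld, with overlap from Abhd6 to Dagla and from Dagla to Faah. In sham PAG, Cnr1 held the second place and Mgll the fourth, and Dagla, Daglb, Napepld and Faah overlapped in turn at means of 4.79 to 5.0 RPKM.

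**Figure D1:**
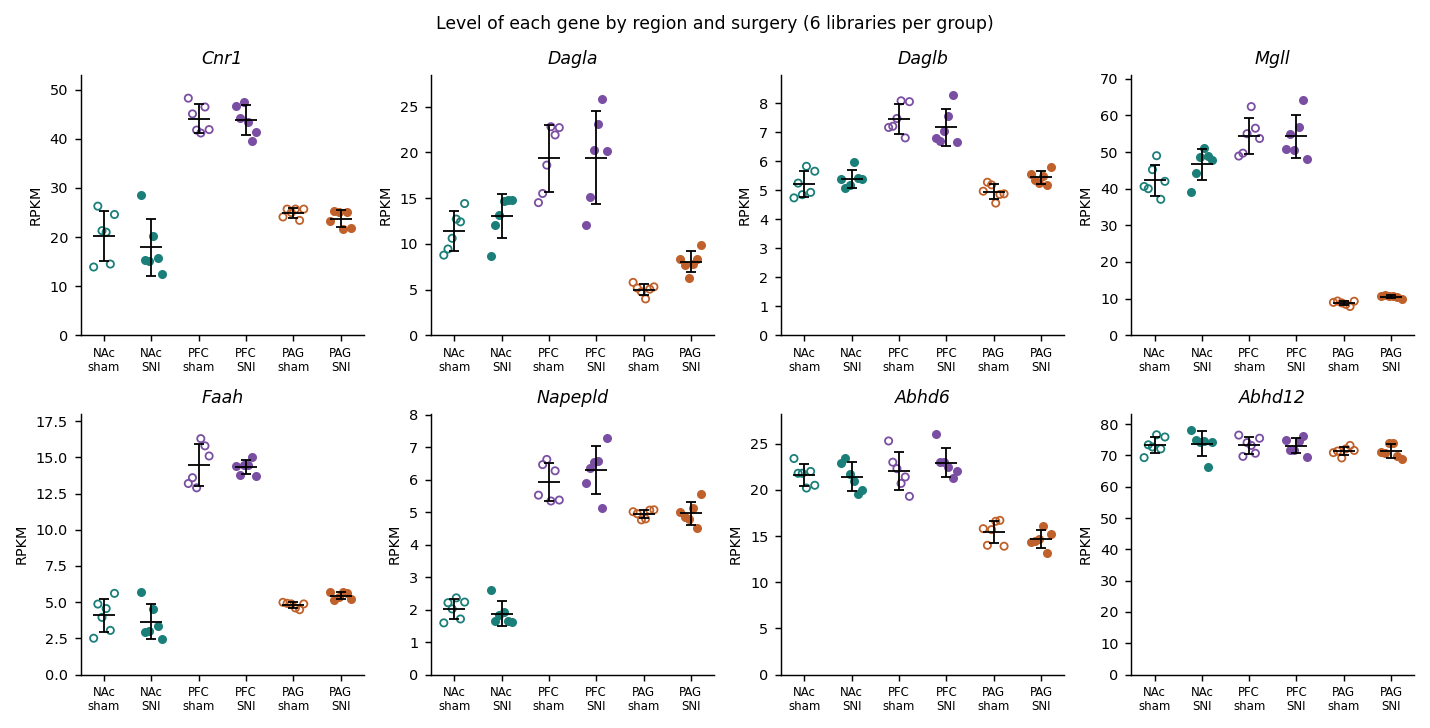
RPKM of the 8 genes in each library (open circles, sham; filled circles, SNI), with the group mean and SD as black bars, on axes that start at 0; 6 libraries per group. Abhd12 is level across regions, Dagla and Mgll are lowest in PAG, Napepld is lowest in NAc, and Cnr1 and Faah stand apart in PFC.

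The comparison of sham groups asked how the 8 genes differ between regions without injury. Cnr1 RNA was highest in PFC. Sham libraries held 41.2 to 48.3 RPKM (median 43.5) in PFC, 13.9 to 26.3 RPKM (median 21.1) in NAc and 23.4 to 25.7 RPKM (median 25.3) in PAG. The PFC libraries stood apart from both other regions, while NAc libraries lay on both sides of the PAG range. On the log2(RPKM + 0.5) scale the difference of NAc and PFC was -1.14 (SE 0.13, adjusted p = 4.07e-09) and that of PFC and PAG 0.81 (SE 0.13, adjusted p = 1.52e-06), by limma with Benjamini-Hochberg adjustment over all genes, as in every adjusted p for a region or for SNI given here. The difference of NAc and PAG was -0.33 (SE 0.13, adjusted p = 0.0256). It missed the threshold without NAc sham library 1 (adjusted p = 0.105), without NAc sham library 5 (0.0969) and under median-of-ratios scaling (0.0667).

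Of the enzymes that make 2-AG, Dagla, the form mainly responsible for synaptic 2-AG in the brain, had a steep gradient from PFC to PAG. It measured 14.5 to 22.8 RPKM (median 20.2) in PFC, 8.76 to 14.4 RPKM (median 11.5) in NAc and 3.97 to 5.78 RPKM (median 5.10) in PAG. Every PAG library was below every NAc library, and the lowest PFC library was just above the highest NAc library. The log2 difference of NAc and PAG was 1.10 (SE 0.15, adjusted p = 9.55e-08), that of PFC and PAG 1.84 (SE 0.15, adjusted p = 7.41e-13) and that of NAc and PFC -0.74 (SE 0.15, adjusted p = 9.08e-05). Daglb, the other diacylglycerol lipase, known for its part in microglia and macrophages, varied less: PFC had 7.47 ± 0.514 RPKM, NAc had 5.21 ± 0.452 and PAG had 4.96 ± 0.255 (SD, n = 6 each). Daglb in NAc and PAG differed by 0.06 (95% interval -0.05 to 0.17, adjusted p = 0.292) on the log2 scale. The log2 difference of PFC and PAG was 0.55 (SE 0.05, adjusted p = 3.87e-11) and that of NAc and PFC -0.48 (SE 0.05, adjusted p = 1.41e-09).

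Of the enzymes that break down 2-AG, Mgll, which carries out most 2-AG hydrolysis in the brain, had the largest regional difference of the 8 genes. Sham libraries held 48.9 to 62.4 RPKM (median 54.3) in PFC, 37.1 to 49.0 RPKM (median 41.3) in NAc and 7.84 to 9.34 RPKM (median 8.90) in PAG. No PAG library came near the range of the other regions. The log2 difference was 2.20 (SE 0.07, adjusted p = 1.48e-24) between NAc and PAG and 2.56 (SE 0.07, adjusted p = 2.03e-26) between PFC and PAG. Abhd6, a membrane-bound hydrolase placed near the site of 2-AG synthesis, measured 21.6 ± 1.14 RPKM in NAc and 22 ± 2.07 in PFC, and PAG had 15.5 ± 1.24, with log2 differences from PAG of 0.47 and 0.49 (adjusted p = 1.19e-08 and 3.89e-09). Abhd12, which also hydrolyses lysophosphatidylserine, gave a log2 difference of 0.00 (95% interval -0.07 to 0.07, adjusted p = 0.976) for NAc and PFC, and of 0.04 (95% interval -0.03 to 0.10, adjusted p = 0.315) for PFC and PAG. The latter passed under median-of-ratios scaling (log2 difference 0.18, adjusted p = 0.000158) and quantile scaling (0.10, adjusted p = 0.00431). The share of Mgll in the summed RPKM of the 3 hydrolases was 30.8% ± 1.92 in NAc, 36.3% ± 2.56 in PFC and 9.19% ± 0.715 in PAG (SD, n = 6 sham libraries each), and that of Abhd12 was 53.4% ± 1.40, 49.0% ± 1.63 and 74.7% ± 0.721.

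Both anandamide enzymes had their highest RNA levels in PFC. Faah, the main hydrolase of anandamide, measured 12.9 to 16.3 RPKM (median 14.3) in PFC, against 2.51 to 5.61 RPKM (median 4.26) in NAc and 4.48 to 4.99 RPKM (median 4.88) in PAG. The log2 difference was -1.74 (SE 0.13, adjusted p = 1.47e-13) between NAc and PFC and 1.5 (SE 0.13, adjusted p = 2.77e-12) between PFC and PAG, and -0.25 (95% interval -0.51 to 0.02, adjusted p = 0.0931) between NAc and PAG. The last passed the threshold without NAc sham library 2 (adjusted p = 0.0497) or 6 (0.0213). Napepld, the enzyme that releases anandamide from its phospholipid precursor, measured 1.59 to 2.36 RPKM (median 2.12) in NAc, 5.34 to 6.62 RPKM (median 5.89) in PFC and 4.76 to 5.07 RPKM (median 4.98) in PAG, and no NAc library reached the lowest library of the other regions. The log2 difference of NAc and PFC was -1.36 (SE 0.08, adjusted p = 8.22e-16), that of NAc and PAG -1.12 (SE 0.08, adjusted p = 5.67e-14) and that of PFC and PAG 0.24 (SE 0.08, adjusted p = 0.0113).

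At an adjusted p under 0.05 and at least 2-fold, 3 of the 8 genes differed between sham NAc and sham PFC, all lower in NAc (Cnr1, Faah and Napepld), against 6.85% of 15639 genes tested in either direction and 3.47% lower. Between NAc and PAG, Mgll and Dagla were higher in NAc and Napepld lower, 3 of 8 against 13% of genes (6.59% higher and 6.42% lower). Between PFC and PAG, Mgll, Dagla and Faah were higher in PFC, 3 of 8 against 15.1% of genes (7.74% higher). Without the 2-fold limit 6, 5 and 7 of the 8 genes passed, against 59%, 71% and 76.1% of genes. The median log2 difference of the 8 genes was -0.61, 0.05 and 0.68 for these 3 pairs, and that of all genes 0.07, -0.02 and -0.09 (0.01, 0.03 and 0.03 with median-of-ratios scaling). Napepld between NAc and PAG was just under 2-fold with a pseudocount of 1 (log2 difference -0.98).

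**Figure D2:**
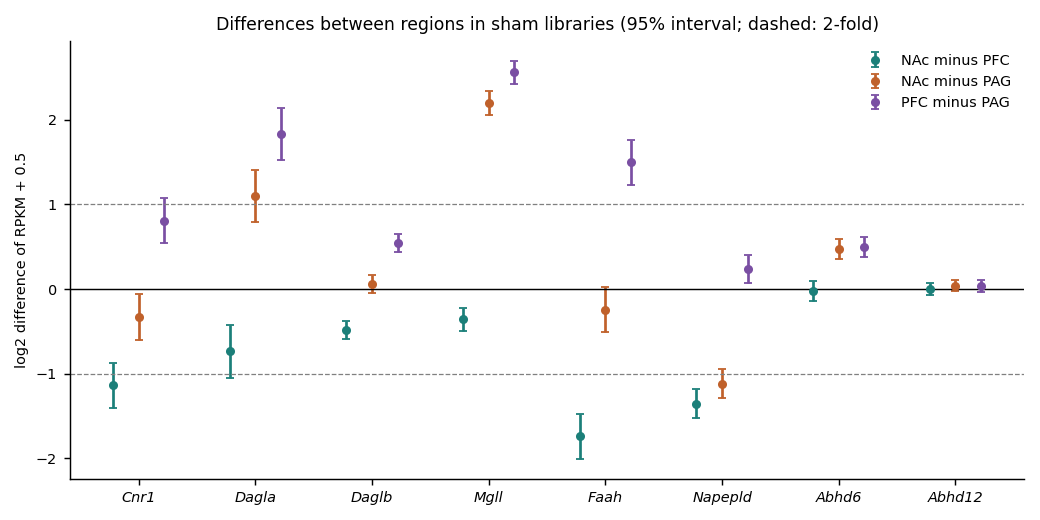
Log2 difference of RPKM + 0.5 between sham groups for each gene (points, limma estimate; bars, 95% interval; dashed lines, 2-fold; 6 libraries per group). Mgll and Dagla lie above the upper dashed line against PAG, and Abhd12 lies at 0.00 to 0.04 in all 3 pairs.

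The NAc libraries fell into 2 sets by Slc17a7, a marker absent from the principal neurons of the NAc: 6 libraries (sham 1 and 5, SNI 8, 9, 11 and 12) held 1.59 to 37.7 RPKM, and 6 (sham 2, 3, 4 and 6, SNI 7 and 10) held 88.3 to 178 RPKM. Cnr1 measured 12.5 to 15.7 RPKM in the set of lower Slc17a7 and 20.3 to 28.5 RPKM in the other. Faah measured 2.44 to 3.33 against 3.95 to 5.67 RPKM, and Napepld 1.59 to 1.82 against 1.91 to 2.60 RPKM. The ranges of these 3 genes did not overlap between the sets, whereas those of Dagla, Daglb, Mgll, Abhd6 and Abhd12 did. The share of all genes that separate in this way was not computed, so the separation is not shown to be particular to these 3. These sets were seen in the data and are not groups of the study, so no test was made between them. Within the sets, 16 relations of a gene with Slc17a7 were tested by exact permutation of 6 libraries. None passed adjustment. For Abhd12 in the higher set Pearson's r was 0.900 (exact p = 0.0111, adjusted 0.156; Spearman's rho 0.943, exact p = 0.0167, adjusted 0.267), and without the 2 libraries farthest from the median r was 0.968. For Faah in that set Pearson's r was 0.885 (exact p = 0.0194, adjusted 0.156; Spearman's rho 0.829, exact p = 0.0583, adjusted 0.311), and without those 2 libraries r was 0.592. All 12 NAc libraries were below every PFC library for Cnr1, Faah and Napepld. The part of neighbouring cortex in these levels was not tested.

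**Figure D3:**
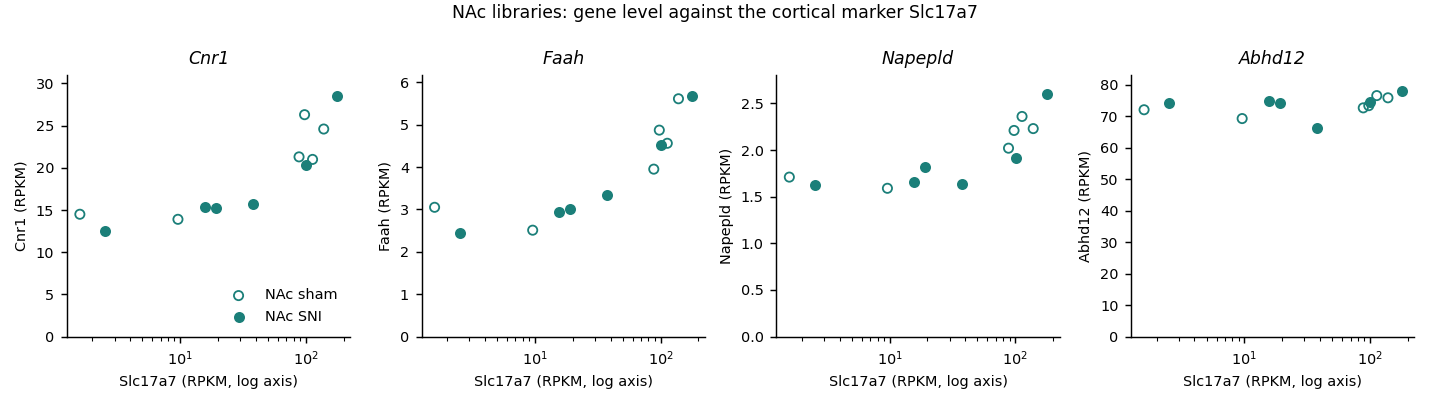
RPKM of Cnr1, Faah, Napepld and Abhd12 against RPKM of Slc17a7 (log axis) in the 12 NAc libraries (open, sham; filled, SNI). In the 6 libraries with Slc17a7 of 88.3 RPKM or more, Cnr1, Faah and Napepld lie above all values of the other 6, and Abhd12 overlaps.

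In NAc, SNI was compared with sham to ask whether the injury changed the system in a reward centre. None of the 8 genes passed the test, and neither did any of 15264 genes tested (0%; 660 at an unadjusted p under 0.05, and 0 and 623 with voom on recovered reads). Cnr1 held 12.5 to 28.5 RPKM (median 15.5) after SNI, beside 13.9 to 26.3 RPKM (median 21.1) in sham, with the groups overlapping throughout; the log2 difference was -0.19 (95% interval -0.62 to 0.25, adjusted p = 0.794). In the set of lower Slc17a7 were 4 of 6 SNI libraries and 2 of 6 sham libraries. The part of this in the lower Cnr1 median of the SNI group was not tested beyond a fit with a cortical covariate. With the score of excitatory cortical markers as that covariate, the Cnr1 change was -0.12 (SE 0.08, adjusted p = 0.771), beside -0.19 (SE 0.20) without it. Faah differed by -0.15 (95% interval -0.59 to 0.28, adjusted p = 0.820) and Napepld by -0.09 (95% interval -0.32 to 0.14, adjusted p = 0.805) on the log2 scale, neither past the threshold. Dagla was 13.1 ± 2.43 RPKM after SNI against 11.4 ± 2.14 in sham (SD, n = 6), a log2 difference of 0.19 (95% interval -0.12 to 0.50, adjusted p = 0.780), and Mgll was 46.6 ± 4.27 against 42.3 ± 4.21 RPKM, 0.14 (95% interval -0.02 to 0.30, adjusted p = 0.780). Daglb, Abhd6 and Abhd12 differed by at most 0.05 on the log2 scale.

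In PFC none of the 8 genes passed for SNI either, nor did any of 15192 genes tested (0%; 220 at an unadjusted p under 0.05, and 0 and 205 with voom). Cnr1 measured 39.5 to 47.5 RPKM (median 43.9) after SNI and 41.2 to 48.3 RPKM (median 43.5) in sham, a log2 difference of -0.01 (95% interval -0.13 to 0.11, adjusted p = 1.0). Faah gave -0.01 (95% interval -0.14 to 0.12, adjusted p = 1.0) and Mgll -0.00 (95% interval -0.17 to 0.16, adjusted p = 1.0). Dagla had the widest interval, -0.01 (95% interval -0.39 to 0.37, adjusted p = 1.0), and libraries of both groups ranged widely: 14.5 to 22.8 RPKM (median 20.2) in sham and 12.1 to 25.8 RPKM (median 20.2) after SNI. The largest difference in PFC was that of Napepld, at 0.08 (95% interval -0.10 to 0.25, adjusted p = 1.0). These intervals leave out a 2-fold change of any of the 8 genes in NAc or PFC.

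In PAG, 4 of the 8 genes rose with SNI and none fell, against 35.2% of 15592 genes that changed (21.5% up, 13.7% down; 3360 and 2135 genes, or 2924 and 4019 under quantile scaling). The 4 were both diacylglycerol lipases, Dagla and Daglb, and the hydrolases Mgll and Faah. Dagla measured 3.97 to 5.78 RPKM (median 5.10) in sham and 6.29 to 9.85 RPKM (median 8.04) after SNI, and the groups did not overlap. Its mean was 1.61 times higher and the log2 change was 0.63 (SE 0.09, adjusted p = 0.000232). Mgll measured 7.84 to 9.34 RPKM (median 8.90) in sham and 9.88 to 11 RPKM (median 10.7) after SNI, again without overlap, with a log2 change of 0.26 (SE 0.04, adjusted p = 0.000621). For Faah, 4.48 to 4.99 RPKM (median 4.88) stood against 5.18 to 5.68 RPKM (median 5.49), also without overlap, and the change was 0.17 (SE 0.04, adjusted p = 0.00403). Daglb overlapped between the groups, at 4.56 to 5.28 RPKM (median 4.93) and 5.18 to 5.82 RPKM (median 5.42), and its change was 0.12 (SE 0.04, adjusted p = 0.0319). Groups that did not overlap were found for 3 of the 8 genes, all higher after SNI, and 16.9% of all genes (13.3% higher after SNI). The median log2 difference of the 8 genes was 0.06, and that of all genes -0.02.

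The receptor and the other 3 enzymes did not pass the test in PAG. Cnr1 measured 23.4 to 25.7 RPKM (median 25.3) in sham and 21.7 to 25.3 RPKM (median 24.2) after SNI, a log2 difference of -0.07 (95% interval -0.17 to 0.03, adjusted p = 0.237). Of the 6 sham libraries 3 were above every SNI library, and the other 3 lay within the SNI range. Abhd6 differed by -0.07 (95% interval -0.19 to 0.05, adjusted p = 0.336), Napepld by 0.00 (95% interval -0.09 to 0.10, adjusted p = 0.940) and Abhd12 by -0.00 (95% interval -0.06 to 0.06, adjusted p = 0.990). The share of Mgll in the 3 hydrolases of 2-AG was 9.19% ± 0.715 in sham and 10.9% ± 0.370 after SNI (SD, n = 6 each).

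The GC slope of a library says how far GC-rich transcripts are raised in it against the mean library of its region (log2 per 10 percentage points of transcript GC). It moved with surgery in PAG. The slope was -0.217 to -0.0246 in sham and 0.0359 to 0.218 in SNI libraries of PAG, without overlap. In NAc and PFC it overlapped, from -0.262 to 0.117 over sham and from -0.241 to 0.152 over SNI libraries. Dagla followed this slope within groups. Over the 24 NAc and PFC libraries, with group means removed, Pearson's r of Dagla with GC slope was 0.950 (permutation p = 1e-05, the smallest that 100000 permutations within groups can give, adjusted 4e-05; Spearman's rho 0.923, permutation p = 1e-05, adjusted 8e-05) and 0.946 without the 2 extreme libraries. Within the 4 groups r was 0.945 to 0.987. Over the 12 PAG libraries r was 0.939 (permutation p = 0.00052, adjusted 0.00416; rho 0.783, permutation p = 0.00404, adjusted 0.0298), and 0.841 without the 2 extreme libraries. Abhd6 ran the other way in NAc and PFC (r = -0.877, permutation p = 1e-05, adjusted 4e-05; rho -0.851, permutation p = 2e-05, adjusted 8e-05; r = -0.788 without the 2 extreme libraries). Mgll and Daglb also rose with the slope in NAc and PFC, with r of 0.628 (permutation p = 0.00266, adjusted 0.00709; rho 0.615, permutation p = 0.00273, adjusted 0.00728) and 0.499 (permutation p = 0.0194, adjusted 0.0388; rho 0.497, permutation p = 0.0177, adjusted 0.0354), or 0.609 and 0.489 without the 2 extreme libraries. In PAG the r was 0.706 for Daglb (rho 0.769, adjusted permutation p = 0.0298), 0.663 for Napepld (rho 0.573, adjusted permutation p = 0.147) and -0.635 for Cnr1 (rho -0.678, adjusted permutation p = 0.0776), with an adjusted permutation p of 0.0486 for each r. Without the 2 extreme PAG libraries these r were 0.201, 0.317 and -0.508, so those of Daglb and Napepld rest on these libraries. The other PAG values of r were -0.01 for Abhd6, -0.07 for Mgll, 0.22 for Faah and -0.51 for Abhd12, none past the threshold. In NAc and PFC the other values were -0.33 for Cnr1, 0.03 for Faah, -0.13 for Napepld and -0.11 for Abhd12, none past the threshold either. The values did not run in the order of transcript GC content, which was 55.0% in Abhd12 and 48.4% in Abhd6. The slope was fitted to these same expression values over the expressed genes. A relation of a GC-rich transcript such as Dagla with it is therefore partly built in. The share of all genes with such relations was not computed, so none is shown to be particular to these 8 genes. These 16 relations, 8 in each of the 2 sets of libraries, were chosen after the values were seen, with adjustment over 8.

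**Figure D4:**
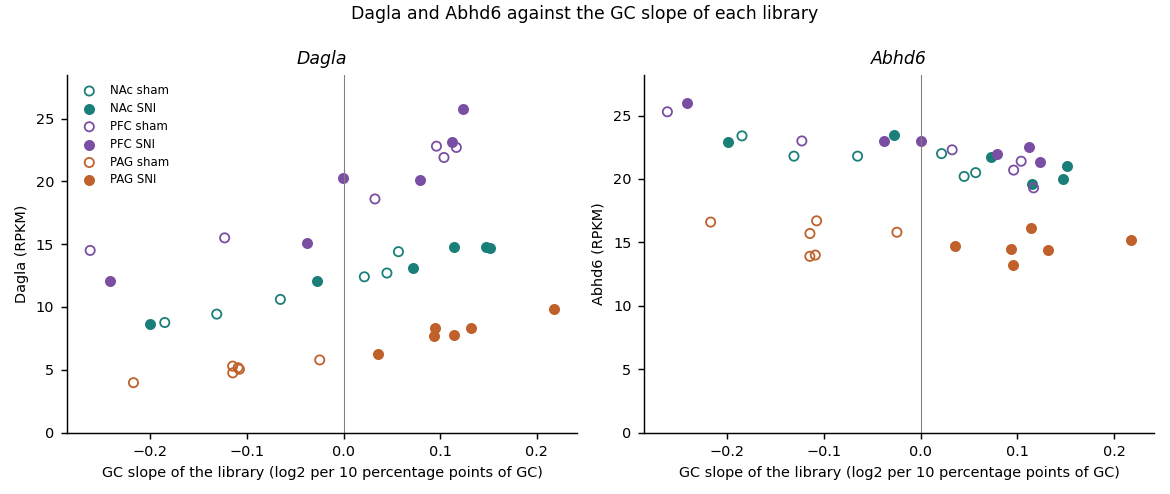
RPKM of Dagla (left) and Abhd6 (right) against the GC slope of each of the 36 libraries (open, sham; filled, SNI; colour, region). Dagla rises with the slope within every group, and the PAG sham and SNI libraries lie on opposite sides of 0 on the horizontal axis.

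The PAG results were therefore also computed with GC content taken into account in 3 ways. With the loess trend on GC removed from each library, Dagla gave 0.30 (SE 0.06, adjusted p = 0.00655), Daglb 0.14 (SE 0.04, adjusted p = 0.0375), Faah 0.12 (SE 0.04, adjusted p = 0.0436) and Mgll 0.09 (SE 0.05, adjusted p = 0.220), and Abhd12 fell (-0.15 (SE 0.04, adjusted p = 0.0186)). With a gene by gene correction for GC slope, its coefficients estimated within the groups of NAc and PFC (library-axis correction), none of the 8 genes passed. Dagla was then 0.12 (SE 0.04, adjusted p = 0.266), Mgll 0.11 (SE 0.05, adjusted p = 0.417), Faah 0.16 (SE 0.04, adjusted p = 0.0963) and Daglb 0.04 (SE 0.03, adjusted p = 0.724), and 20 genes of 15592 passed. With GC slope as a covariate no gene passed at all (1374 at an unadjusted p under 0.05), and Dagla was -0.02 (SE 0.09, adjusted p = 0.971) while Mgll was 0.28 (SE 0.10, adjusted p = 0.512). The slope did not overlap between the surgeries in PAG, so this fit can hardly tell slope from surgery. Mgll and Faah had values of the same sign in all 3, but Mgll passed in none. Dagla, Daglb and Faah passed only with the loess trend removed. The covariate value of Dagla was smaller than its SE. With 1 model of all 36 libraries, Dagla and Mgll passed and Faah (adjusted p = 0.340) and Daglb (0.0849) did not. That model takes 1 spread per gene for all regions, whereas fitted by region the SE of Faah was 0.20 in NAc and 0.04 in PAG. Daglb also missed the threshold under quantile scaling (0.240), with array weights (0.0525), with an oligodendrocyte covariate (0.101) and, at up to 0.0738, without any 1 of sham libraries 28, 29 and 30 and SNI libraries 31, 34 and 36.

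**Figure D5:**
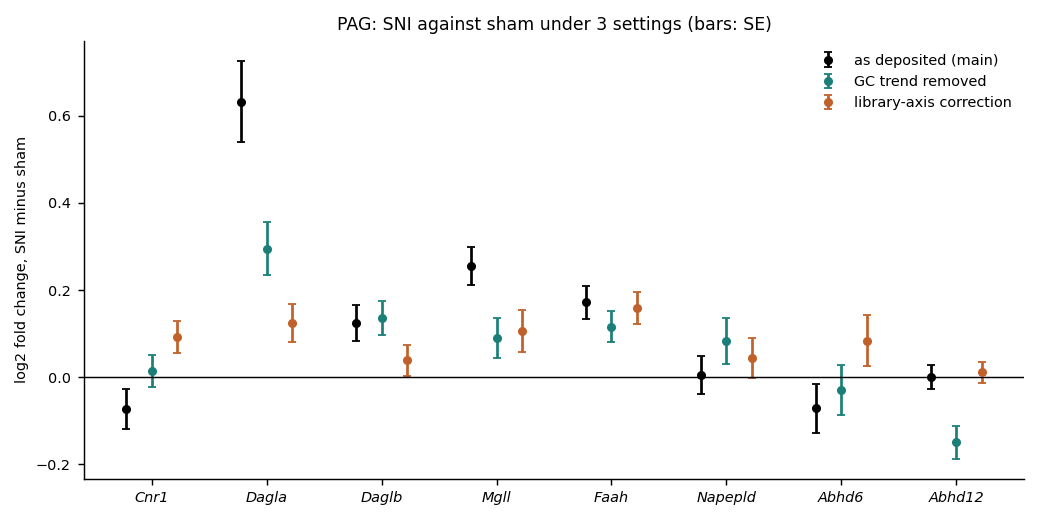
Log2 fold change of each gene in PAG, SNI minus sham (points, limma estimate; bars, SE; 6 libraries per group), for the values as deposited, with the GC trend removed and with the library-axis correction. Dagla drops from 0.63 to 0.30 and 0.12, whereas Faah stays between 0.12 and 0.17.

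Markers of other cells differed with surgery in PAG too, where 35.2% of all genes passed (21.5% higher and 13.7% lower). Of 8 microglial markers 4 rose and none fell (summed 67.7 to 76.1 RPKM in sham, 82.5 to 104 after SNI), and of 10 oligodendrocyte markers 4 rose (1347 to 1545 against 1418 to 1953 RPKM). Of 5 tested markers of excitatory cortical neurons 2 rose, at a summed 33.6 to 42.4 against 42.4 to 52.2 RPKM, while Tbr1 and Emx1 were under 0.5 RPKM. Of 8 astrocyte markers 4 rose and 2 fell (472 to 523 against 443 to 492 RPKM), of 6 fibroblast markers 3 rose (13.1 to 15.8 against 14.4 to 17.5 RPKM), and of 7 endothelial and mural markers 2 rose (97.7 to 115 against 100 to 134 RPKM). Monoaminergic and cholinergic markers, 7 tested and 1 lower, summed to 196 to 311 RPKM in sham and 94.6 to 263 RPKM after SNI. Their part in the changes of Dagla, Daglb, Mgll and Faah was not tested beyond the oligodendrocyte covariate, with which Dagla, Mgll and Faah passed (adjusted p = 0.00173, 0.00703 and 0.0390).

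The SNI effects of PAG were not shown to differ from those of the other regions, in a model that takes 1 spread per gene for all regions. None of the 8 genes and none of 15639 genes (0%) passed in any of the 3 contrasts of SNI effects between regions in limma (1405 genes at an unadjusted p under 0.05 for PAG minus NAc, 2779 for PAG minus PFC and 178 for NAc minus PFC). Other settings let a few genes pass, none of them among the 8: 4 for PAG minus NAc and 5 for PAG minus PFC with a pseudocount of 1, and 4, 11 and 1 for the 3 contrasts with no filter. The Dagla effect in PAG exceeded that in NAc by 0.44 (95% interval 0.01 to 0.88, adjusted p = 0.551) and that in PFC by 0.65 (95% interval 0.21 to 1.08, adjusted p = 0.215) on the log2 scale. For Mgll the difference was 0.12 (95% interval -0.08 to 0.31, adjusted p = 0.710) from NAc and 0.26 (95% interval 0.06 to 0.46, adjusted p = 0.215) from PFC.

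Ratios of RNA within a library set an enzyme of synthesis against an enzyme of breakdown, or the 2 lipases against each other. Apart from the 0.5 RPKM added to each value, they do not depend on library scaling. In PAG the log2 ratio of Dagla to Mgll was -0.76 ± 0.154 in sham and -0.38 ± 0.237 after SNI (SD, n = 6 each; difference 0.38, exact permutation p = 0.00866, two-sided, adjusted over 9 tests 0.0390). The ratio of the 2 lipases, Dagla to Daglb, went from 0.00 ± 0.141 to 0.51 ± 0.165 (difference 0.51, exact permutation p = 0.00216, the smallest that 924 assignments allow; adjusted 0.0195), with no overlap between groups. The ratio of Napepld to Faah was 0.04 ± 0.0657 in sham and -0.13 ± 0.120 after SNI (difference -0.17, exact permutation p = 0.0173, adjusted 0.0519). In NAc and PFC no adjusted p was under 0.765. With the GC trend removed the differences for Dagla to Mgll and Dagla to Daglb were 0.21 (adjusted p of the exact permutation test 0.273) and 0.16 (0.156). Dagla to Mgll also missed the threshold in 7 of the 12 tests that left out 1 PAG library (sham 26, 27, 28 or 30, SNI 31, 35 or 36; adjusted p of the exact permutation test up to 0.0844).

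A list of 43 further genes of the pathway gave the setting. Cnr2, Trpv1, Gpr18 and Gpr119, which encode the second cannabinoid receptor and other proposed targets of these lipids, were under 0.5 RPKM in all 3 regions. Gpr55, a receptor for lysophosphatidylinositol, was higher in NAc than in PFC by 1.49 (SE 0.09, adjusted p = 2.06e-15) on the log2 scale. Upstream of diacylglycerol, Homer1, a scaffold of group I metabotropic glutamate receptors, was higher in NAc than in PAG (2.46 (SE 0.07, adjusted p = 4.02e-25)), as were the receptor gene Grm5 (1.56 (SE 0.06, adjusted p = 3.38e-22)) and the phospholipase Plcb1 (1.45 (SE 0.07, adjusted p = 9.52e-19)). Plcb4, another phospholipase C, was lower in NAc than in PAG (-2.38 (SE 0.09, adjusted p = 2.02e-22)) and lower in PFC than in PAG (-1.58 (SE 0.09, adjusted p = 1.58e-17)). Homer1 and Plcb1 were also higher in PFC than in PAG, by 2.28 and 1.20. Ptgs2, the inducible cyclooxygenase, which can oxidise 2-AG and anandamide, was highest in PFC (log2 difference from PAG 2.39 (SE 0.28, adjusted p = 2.49e-09), and of NAc from PFC -1.26 (SE 0.28, adjusted p = 0.000222)).

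Of 36 tested genes of this list, 1 was higher and 3 lower in NAc than in PFC at 2-fold, the latter being Ptgs2, Adrbk2 (a G protein-coupled receptor kinase, -1.19) and Pla2g4e (an N-acyltransferase, -1.12). Against PAG, 4 were higher and 2 lower in NAc, including Gprasp1 (-1.05) and, outside the naming rule and picked after its value was seen, Ptgs2 (1.13). In PFC 3 were higher and 5 lower than in PAG, the lower ones also including Gprasp1 (-1.36), the fatty acid binding protein gene Fabp7 (-1.05) and, picked after their values were seen, Fabp5 (-1.04) and Pla2g16 (-1.03). These counts stand beside 6.85%, 13% and 15.1% of all genes for the 3 pairs. With SNI none of 36 passed in NAc or PFC. In PAG 5 of 35 rose and 8 fell, beside 21.5% and 13.7% of all genes, with a median log2 difference of -0.08 (all genes -0.02). Those that rose were the G protein subunits Gna11 (0.28 (SE 0.05, adjusted p = 0.000532)) and Gnai2 (0.23 (SE 0.04, adjusted p = 0.000989)), the phospholipase Plcb3 (0.23 (SE 0.05, adjusted p = 0.00169)), the arrestin Arrb2 (0.18 (SE 0.04, adjusted p = 0.00363)) and, picked after its value was seen, Fam213b (0.16). The 4 with the largest falls were Fabp5 (-0.21 (SE 0.07, adjusted p = 0.0363)), Hrasls (-0.18 (SE 0.06, adjusted p = 0.0351)), Gnaq (-0.14 (SE 0.03, adjusted p = 0.00204)) and Plcb4 (-0.14 (SE 0.03, adjusted p = 0.00360)). Transcript GC content was 55.7% to 57.8% in the 5 that rose and 42.1% to 49.0% in these 4. It was 44.5% to 47.5% in Gprasp1, Ddhd2, Plcb1 and Gdpd1, which also fell. Some genes of like GC content did not pass (limma). Picked after their values were seen, Gnao1 (56.1%) gave -0.00 (adjusted p = 0.934) and Pla2g16 (44.9%) gave 0.01 (adjusted p = 0.906). None of the 8 named by the rule passed under the library-axis correction or with the GC trend removed (limma, adjusted p of at least 0.0652 in the latter). With the trend removed the log2 changes of Gna11, Gnai2, Plcb3 and Arrb2 were 0.02, -0.00, -0.01 and 0.00, and those of Fabp5, Hrasls, Gnaq and Plcb4 were -0.18, -0.07, -0.08 and -0.04.

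The genes most like each of the 8 over the 36 libraries were named by the highest Pearson's r of log2 values among 12895 candidates, as a description that mostly reflects the 3 regions. For Mgll these were Itpka (0.995), Dusp14 and Cecr6, and for Cnr1 Sidt1 (0.986), Mfsd4 and Kcnj3. For Faah they were Srrm4 (0.988), Sidt1 and Rap1gap2, for Napepld Zfpm2 (0.983), Fads3 and Dtx4, and for Dagla Tmem198 (0.987), Git1 and Gal3st3. Daglb was most like Atxn7l3 (0.965), Klhl40 and Rtn4r, and Abhd6 most like Reps2 (0.967), Lrp11 and Rgs4. Abhd12, which varied least, reached 0.753 with Cox8a, followed by Kcnk1 and Trnp1. With group means removed the nearest genes were Cdk14 (0.947) and Fam19a1 for Cnr1, Nptxr (0.951) and Mapk11 for Faah, Zmiz2 (0.966) and Ap2a1 for Dagla, and Cox5a (0.784) and Cox8a for Abhd12. The other 4 genes reached at most 0.883, for Napepld with Synm.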

How the data were processed

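Per the file headers and the values, the authors deposited 1 table of RPKM values for 31554 genes in 36 libraries; TopHat2, HTSeq and build mm10 are named per the submitters' processing notes, with settings and strand use not given in the sources used here. Polyadenylated RNA was selected, per the labels' protocols. Multiplied by length and depth, 100% of RPKM values gave whole reads (tolerance 0.001), which gave the depth of each library. GENCODE M21 matched 97.9% of gene identifiers. The tool for all comparisons of groups was limma 3.58.1 in R 4.3.3, with a mean-variance trend, on log2(RPKM + 0.5), keeping genes whose mean reached 0.5 RPKM, two-sided, with Benjamini-Hochberg adjustment over all genes and a threshold of 0.05. This scale makes the changes of low genes look smaller. SNI comparisons used the 12 libraries of a region; sham pairs and differences of effects used 1 model of 36 with no term for animals that regions may share. Ratios were tested by exact permutation (scipy 1.17.1). The fits were also run on simulated independent reads with no GC slope or tissue mixture, so that run has no bearing on either.

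The 8 genes and the lists of 43 pathway and 81 marker genes (79 matched) were chosen with earlier results of these data known. All 8 were named; of the pathway list, up to 4 genes per direction with SNI and 3 per region pair, by size of change. Alternatives covered pseudocount, filter, scaling, weights, GC content, cell mixture, voom and leaving out each library. No library repeated another of its group (chi-square over degrees of freedom at least 3.89 in 90 pairs).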

Additional observations from a re-analysis of the deposited data

Results flagged for a closer look

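Across 48 combinations of gene and group, 3 held a library far from the other 5 of its group by Dixon's criterion, and chance flags about 1 in 20 groups. Napepld measured 2.60 RPKM in NAc SNI library 7, which also had the highest Slc17a7 of the NAc libraries (178 RPKM), against 1.62 to 1.91 RPKM in the other 5. Abhd6 measured 26 RPKM in PFC SNI library 19, the SNI library with the lowest GC slope in PFC (-0.241). Abhd12 measured 66.4 RPKM in NAc SNI library 11, the lowest value of that gene in the series.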

How the results depend on the processing

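No paired analysis was possible because the groups share no replicate numbers. Fewer reads limited Napepld most (202 reads, 7.04% counting error). All 8 genes passed the filters in every region. For differences of SNI effects between regions, the number of all genes past the threshold went from 0 to 4 (PAG minus NAc) and 5 (PAG minus PFC) with a pseudocount of 1, and to 4, 11 and 1 (NAc minus PFC) with no filter, while that of the 8 genes was 0 in each. In NAc the number of all genes past the threshold went from 0 to 2 with array weights, and to 1 with the GC trend removed, with the oligodendrocyte covariate and with the cortical covariate. In PAG all genes past the threshold went from 5495 to 2019 with the GC trend removed, 0 with GC slope as covariate, 20 with the library-axis correction and 3337 with all libraries in 1 model, and of the 8 genes 0, 0 and 2 passed in the last 3. With no fold threshold the sham pairs gave 6 of the 8 and 9230 genes (NAc and PFC), 5 and 11107 (NAc and PAG), and 7 and 11902 (PFC and PAG). With the GC trend removed the PAG ratios of Dagla to Mgll and to Daglb were 0.2052 and 0.1595, and the NAc ratio of Dagla to Mgll turned to -0.0219. The cause was not tested.

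Other log2 differences that turned sign were in no case past the threshold. In NAc, Abhd6 was 0.0226 with median-of-ratios scaling, 0.0334 with the GC trend removed, 0.0403 with the GC slope covariate and 0.0437 with the library-axis correction. Abhd12 there was -0.0116 with the GC trend removed and -0.0043 with the oligodendrocyte covariate, and Dagla -0.0064 with the GC slope covariate and -0.0071 with the library-axis correction. In PFC, Abhd12 was 0.0011 under quantile scaling, and Cnr1 was 0.0276 with array weights and 0.0013 with the library-axis correction. With the oligodendrocyte covariate Cnr1, Mgll, Faah and Abhd12 were 0.0037, 0.0009, 0.0042 and 0.0002. In PAG, quantile scaling gave -0.0616 for Napepld and 0.0181 for Abhd12, and Napepld was -0.0123 with array weights and -0.0227 with the oligodendrocyte covariate. Cnr1 was 0.0141 with the GC trend removed. The GC slope covariate gave 0.1278 for Cnr1, -0.0172 for Dagla, -0.0423 for Daglb, -0.1721 for Napepld and 0.0696 for Abhd12. The library-axis correction gave 0.0915 for Cnr1, 0.0836 for Abhd6 and 0.0109 for Abhd12, and voom 0.0001 for Abhd12. Between sham NAc and PFC, Abhd12 was -0.0746 with median-of-ratios and -0.0152 with quantile scaling.

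Leaving out 1 library at a time changed a sign or a call (between sham groups, the 2-fold call) for these log2 differences, given as ranges: in NAc Abhd6 -0.036 to 0.0143, Abhd12 -0.0082 to 0.0378. In PFC Cnr1 -0.0348 to 0.0182, Dagla -0.1012 to 0.1097, Mgll -0.0538 to 0.0363, Faah -0.0423 to 0.0232, Abhd12 -0.0178 to 0.0106. In PAG Daglb 0.1031 to 0.141, Napepld -0.0249 to 0.0303, Abhd12 -0.0113 to 0.0101. Between sham NAc and PFC Abhd6 -0.0586 to 0.0184, Abhd12 -0.013 to 0.0174. The differences of log2 ratio ranged as follows: Dagla to Mgll in NAc -0.0074 to 0.1192, Napepld to Faah in NAc -0.0048 to 0.1231, Dagla to Mgll in PFC -0.0614 to 0.0969, Dagla to Daglb in PFC -0.0242 to 0.1509, Dagla to Mgll in PAG 0.3016 to 0.4459, Napepld to Faah in PAG -0.2073 to -0.134 (Napepld to Faah in PAG passed without SNI library 36, exact permutation test, adjusted p = 0.00974). The number of all genes past the threshold in NAc was 0 to 3, with 3 without SNI library 7, and in PAG 4234 to 6529, with 3 or 4 of the 8 genes.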

Other observations

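Among the 8 genes themselves, Cnr1 and Faah varied most alike. Over the 36 libraries the Pearson's r of their log2 values was 0.968, and with the 6 group means removed it was 0.868, as a description over libraries that share tissue content within a dissection. Cnr1 and Napepld gave 0.658 and Faah and Napepld 0.593 with group means removed. These values pool regions of unequal spread, and r within a region is not given here. Fitted by region, the SE of the SNI difference of Cnr1 was 0.20 in NAc, 0.06 in PFC and 0.05 in PAG. For Faah it was 0.20, 0.06 and 0.04. Dagla and Abhd6, both higher in NAc and PFC than in PAG, had an r of 0.678 over the 36 libraries and of -0.674 with group means removed. Mgll and Abhd6 likewise went from 0.899 to -0.558. Within the groups of NAc and PFC, Dagla and Mgll rose with GC slope (r = 0.950 and 0.628) and Abhd6 fell (r = -0.877). Within the groups of PAG the r with GC slope was 0.939 for Dagla, -0.07 for Mgll and -0.01 for Abhd6. The part of GC slope in the negative values between genes was not tested.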
